A study of Mus musculus with 6 samples.

Results

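Genes that encode or neighbour the regulators of rod photoreceptor fate were examined in whole retina of mice at postnatal day 21. The genes were Nrl, Nr2e3, Crx, Crxos1, Esrrb, Mef2c, Mef2d, Rorb, Neurod1 and Otx2, chosen by name, and every mRNA isoform listed under those symbols was taken. All 10 genes were present, with 15 of the 15142 mRNA transcripts in the RNA-seq table. The 6 libraries came from mice of strain C57BL/6 by the labels, which the methods give as C57Bl/6J for the wild-type (WT) mice and for the background of the Nrl-/- mice. Of these libraries 3 were WT and 3 Nrl-/-, and each was prepared independently from the retina of 1 mouse. No other agent or allele is named for either genotype. The Nrl-/- mice carry the deletion in every cell and throughout development, so a difference at this age is that of a retina that developed without NRL, and it cannot be told apart from an immediate effect of losing the factor. Which exons the targeted allele lacks is not given in the sources used here.

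Rods and cones arise from shared precursors that express OTX2, a homeodomain factor needed for photoreceptor fate. OTX2 acts upstream of CRX, a homeodomain activator of genes in both rods and cones, and the nuclear receptor RORB is needed for the onset of NRL. NRL, a basic leucine zipper factor of the MAF family, then directs the precursor to the rod fate and activates NR2E3, an orphan nuclear receptor that represses cone genes in rods. Mouse retinas without NRL are known to form cone-like photoreceptors in place of rods.

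Levels are given as FPKM, a read count scaled to transcript length and library size, obtained from the deposited log2(FPKM + 1) values. Log2 fold changes are differences of mean log2(FPKM + 1), Nrl-/- minus WT, so that a negative value is a lower level in Nrl-/- retina. A transcript was called higher or lower when its adjusted p was under 0.05 in a limma fit over all mRNA transcripts, with Benjamini-Hochberg adjustment. The 1 added before the logarithm makes the fold change of a transcript near 0 smaller than that of its FPKM. Because whole retina was sequenced, fewer cells of a type and less RNA per cell cannot be told apart. The tables give FPKM without the reads counted per transcript, so no counting interval is given for a level.

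Of the 15 member transcripts 8 were lower in Nrl-/- retina, from Nrl, Nr2e3, Esrrb, Mef2c and Rorb, and the falls ran from -1.81 to -8.15 on the log2 scale. Another 2 were higher, from Crxos1 and Otx2. The remaining 5, both Crx isoforms, 1 Rorb isoform, Mef2d and Neurod1, did not pass the test. Among all mRNA transcripts 10.1% were called lower and 26.7% higher, against 53.3% and 13.3% of the member transcripts. The lower member transcripts include both of Nrl, the targeted gene itself, and isoforms of 1 gene were counted separately. The split over all transcripts depends on the scaling, with 4047 higher and 1522 lower on the deposited scale and 2459 and 2277 under median-of-ratios scaling, while the member counts were 2 and 8 under both. The median log2 fold change was -1.81 over the member transcripts and 0.08 over all transcripts. In 8 member transcripts every Nrl-/- library lay below every WT library, as in 14.2% of all transcripts. In 4 every Nrl-/- library lay above every WT library, as in 34.9% of all, and in 3 the genotypes overlapped. WT replicate 2 alone held Xist RNA, the X-silencing transcript of females, at 186 FPKM against at most 0.0497 elsewhere, and without that library 2 member transcripts were again higher and 8 lower. The plot of member levels by library shows all 15 transcripts on 1 scale.

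**Figure D1:**
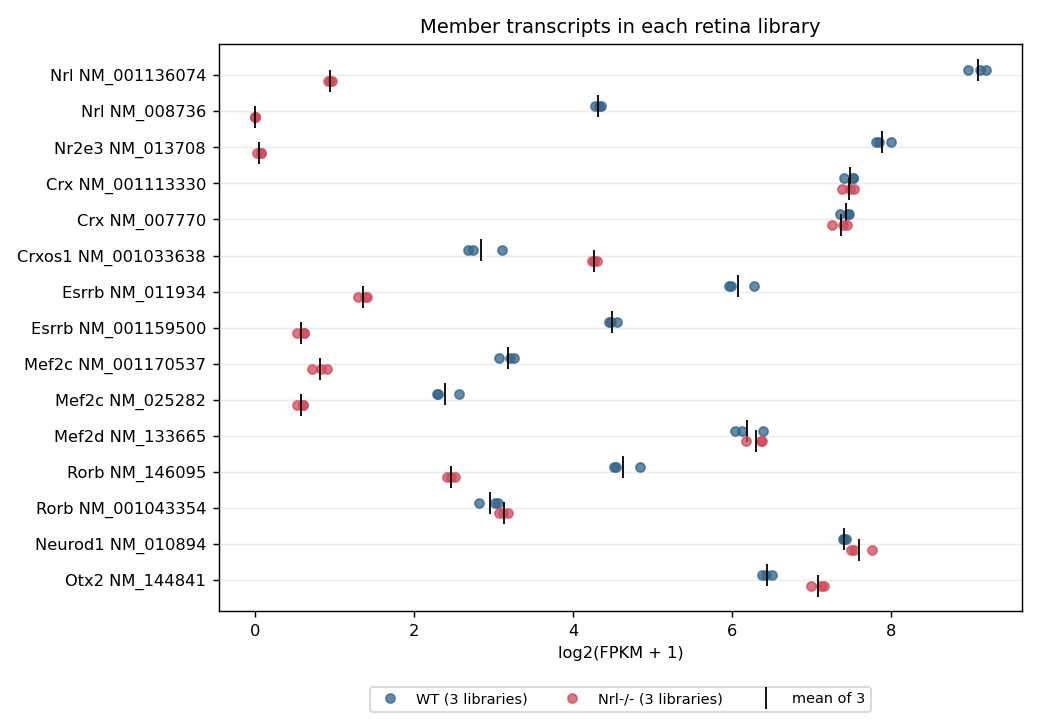
Each row is 1 member transcript, the x axis is log2(FPKM + 1), each point is 1 retina library and each vertical bar is the mean of the 3 libraries of a genotype. The Nrl and Nr2e3 transcripts lie at or below 0.97 in Nrl-/- retina, while both Crx transcripts lie between 7.26 and 7.53 in both genotypes.

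In WT retina the members spanned from 4.24 to 545 in mean FPKM. Nrl (NM_001136074) stood first, at rank 15 of all 15142 transcripts, and Nr2e3 stood second, at rank 51. The next in order were the 2 Crx transcripts at 178 and 171 and Neurod1 at 169, whose library values overlapped from each one to the next. Otx2 at 85.5, Mef2d at 71.9 and the higher Esrrb transcript at 66.7 came after them, again with overlapping neighbours. The lowest were Mef2c (8.03 and 4.24), the second Rorb transcript (6.78) and Crxos1 (6.22). Of these, Rorb and Crxos1 overlapped.

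The order was different in Nrl-/- retina. Neurod1 stood first at 193, its libraries overlapping those of the first Crx transcript at 176, and Otx2 at 135 stood apart from the second Crx transcript at 164. Mef2d followed at 78.0 and Crxos1 at 18.2, each apart from the next. Every transcript of Nrl, Nr2e3, Esrrb and Mef2c had a mean FPKM of 1.57 or less.

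Nrl lies on the minus strand at chr14:56137815-56143818 in the mouse assembly NCBIM37 (mm9). The FPKM of NM_001136074 was 552, 583 and 500.5 in the WT libraries and 0.919, 0.879 and 0.959 in the Nrl-/- libraries, in the order of replicates 1 to 3. All 3 Nrl-/- libraries were far below WT, with a residual level close to 1 and a spread of 0.0399 (SD, n = 3). On the log2 scale the change was -8.15 ± 0.065 (SE; adjusted p = 2.8e-12, limma), and only 2 of the 15142 transcripts fell further. NM_008736, the minor isoform, was at 19.1, 19.4 and 18.3 in WT, and each Nrl-/- library lists it at 0. The targeted gene therefore matched the genotype labels in all 6 libraries.

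Nr2e3, the nuclear receptor that NRL activates, lies on the minus strand at chr9:59790578-59808466. Its transcript NM_013708 was at 223, 230 and 253 in WT and at 0.0497, 0.0497 and 0.0140 in Nrl-/- retina. Those Nrl-/- values are 7, 7 and 2 rounding steps of the deposited log2 scale above 0, and no ratio of FPKM is given for that reason. The log2 fold change was -7.83 ± 0.063 (SE; adjusted p = 2.8e-12, limma). The TopHat alignments have a single pooled FPKM per genotype, with no error and no test. In them all 7 Nr2e3 transcripts were present in WT, from 4.02 to 115, and were listed at 0 in Nrl-/- retina. The single Nrl transcript of that alignment was at 444 in WT and 0.301 in Nrl-/- retina.

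Esrrb encodes an orphan nuclear receptor with a role in the survival of mouse rods, on the plus strand at chr12:87702067-87862578. Its main transcript, NM_011934, was at 76.2, 61.2 and 62.6 in WT and at 1.60, 1.45 and 1.66 in Nrl-/- retina. WT replicate 1 stood above the other 2, and the genotypes were far apart. Mean FPKM was 42.5-fold lower in Nrl-/- retina, and the log2 fold change was -4.71 ± 0.087 (SE; adjusted p = 9.5e-10, limma). The second transcript, NM_001159500, went from 21.5 ± 0.807 to 0.495 ± 0.0533 (SD, n = 3), which is 43.5-fold lower. The pooled TopHat values summed over 3 Esrrb transcripts were 94.7 in WT and 2.19 in Nrl-/- retina.

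Mef2c, a MADS-box activator, lies on the plus strand at chr13:83643033-83806684. NM_001170537 was at 8.19, 8.51 and 7.40 in WT and at 0.778, 0.866 and 0.647 in Nrl-/- retina, and its log2 fold change was -2.36 ± 0.082 (SE; adjusted p = 6.0e-08, limma). NM_025282 was at 3.92, 4.90 and 3.89 against 0.516, 0.434 and 0.516, with a log2 fold change of -1.81 ± 0.095 (SE; adjusted p = 9.1e-07, limma). In mean FPKM these were 10.5-fold and 8.67-fold lower levels, from a WT level that was modest among the members. The pooled TopHat values of 2 Mef2c transcripts summed to 12.5 in WT and 0.647 in Nrl-/- retina, which is 19.3-fold lower. Its relative Mef2d, a MADS-box factor that acts with CRX on photoreceptor genes in mouse retina, did not pass the test. Mef2d (NM_133665, chr3:87946294-87976008, plus strand) was at 82.9, 68.6 and 64.3 in WT and at 81.1, 81.7 and 71.0 in Nrl-/- retina. The genotypes overlapped, the log2 fold change was 0.12 with a 95% interval from -0.10 to 0.34, and the adjusted p was 0.37 (limma). WT replicate 1 was the highest of the 6 libraries, and without it the change was 0.23 and called higher, with an adjusted p of 0.049 (limma). Mef2d was not called when any other library was left out. Under median-of-ratios or upper-quartile scaling its change was 0.01, with adjusted p of 0.93 and 0.92 (limma). The pooled TopHat values of Mef2d summed to 124 in WT and 138 in Nrl-/- retina.

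Crx lies on the minus strand at chr7:16451296-16465317. NM_001113330 was at 168, 183 and 183 in WT and at 184, 178 and 166 in Nrl-/- retina. NM_007770 was at 163, 174 and 176 against 173, 167 and 152. Both isoforms overlapped between the genotypes. Their log2 fold changes were -0.02 (95% interval -0.16 to 0.12, adjusted p = 0.86, limma) and -0.06 (95% interval -0.21 to 0.08, adjusted p = 0.48, limma). Under quantile normalization, which sets the same distribution in every library, the 2 changes were -0.16 and -0.22, with adjusted p of 0.042 and 0.012 (limma). They were -0.12 and -0.17 under median-of-ratios scaling (adjusted p = 0.17 and 0.074, limma). Upper-quartile scaling also gave -0.12 and -0.17 (adjusted p = 0.18 and 0.082, limma). The plot of genotype differences sets these intervals beside those of the other members.

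**Figure D2:**
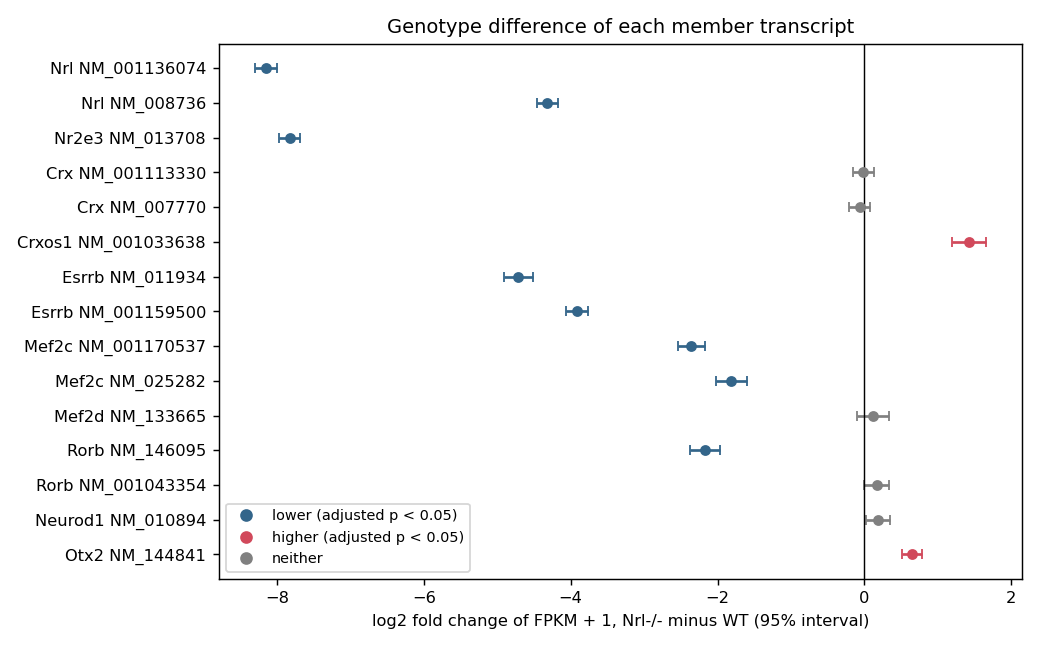
Each row is 1 member transcript and the x axis is the log2 fold change of FPKM + 1, Nrl-/- minus WT, with bars for the 95% interval of the limma fit. Colours mark an adjusted p under 0.05. The 8 lower transcripts lie between -8.15 and -1.81, and the 2 higher ones, Otx2 and Crxos1, lie at 0.65 and 1.42.

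Crxos1, the gene on the strand opposite to Crx, rose. It lies on the plus strand at chr7:16467966-16489379, so that its first annotated start is 2649 bases from that of Crx and both are transcribed away from each other. NM_001033638 was at 5.41, 5.68 and 7.57 in WT and at 18.7, 17.8 and 18.2 in Nrl-/- retina. WT replicate 3 was the highest WT library and still lay far below every Nrl-/- library. Mean FPKM was 2.93-fold higher in Nrl-/- retina, and the log2 fold change was 1.42 ± 0.10 (SE; adjusted p = 7.5e-06, limma), with 178 of the 15142 transcripts above it. The pooled TopHat values of all 4 Crxos1 transcripts were higher in Nrl-/- retina, with sums of 27.6 in WT and 63.9 in Nrl-/-, while the 3 Crx transcripts summed to 368 and 355. The library kit did not mark strand. In the GENCODE M1 annotation 0 exons of Crx share bases with a gene on the other strand, and the same holds for Crxos1. Among the other members Mef2d overlaps an exon of 1700113A16Rik and Neurod1 one of Gm17325 on the opposite strand, so their reads cannot be told apart.

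Otx2 (NM_144841, chr14:49277354-49287319, minus strand) was at 85.2, 89.5 and 81.7 in WT and at 141, 137 and 126 in Nrl-/- retina, with every Nrl-/- library above every WT library. Mean FPKM was 1.58-fold higher, and the log2 fold change was 0.65 ± 0.062 (SE; adjusted p = 5.1e-05, limma). Otx2os1, a noncoding RNA named for the strand opposite to Otx2, was at 12.5, 12.2 and 11.0 in WT and at 18.2, 16.6 and 16.6 in Nrl-/- retina, 1.44-fold higher in the mean. It belongs to another table of the deposit and was not tested in the mRNA fit. By TopHat, 7 of 8 Otx2 transcripts had a higher pooled FPKM in Nrl-/- retina, and the sums were 128 and 188.

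OTX2 is also made by bipolar cells and by the pigment epithelium, which lines the retina from outside. Of 12 bipolar cell markers 6 were higher (50%) and 1 lower (8.33%) in Nrl-/- retina, where 28.3% of all gene symbols were higher and 10.2% lower. Their summed FPKM was between 331 and 371 in WT libraries and between 509 and 564 in Nrl-/- libraries. The largest rises were those of Cabp5 and Lhx4, at 2.06 and 1.70 on the log2 scale, followed by Grm6 at 0.66, and the lower marker was Prkca at -0.37. An ordinary linear model called 4 of the 12, counting both directions. Over all mRNA transcripts that model also called fewer, 2934 higher and 1146 lower. Without Cabp5 and Lhx4 the sums over the other 10 markers were between 286 and 326 in WT libraries and between 327 and 366 in Nrl-/- libraries. These sums are on the deposited scale and were not rescaled. The median-of-ratios factors, by which FPKM is divided, were 0.955 to 0.970 in WT and 1.03 to 1.04 in Nrl-/- libraries. The narrow gap between the 2 ranges therefore depends on the scaling. Of 10 pigment epithelium markers 8 were in the table, of which 0 passed the limma test, 1 had an unadjusted p under 0.05, and 0 passed in an ordinary linear model. Their summed FPKM lay between 12.6 and 86.7 in WT libraries and between 36.2 and 68.9 in Nrl-/- libraries, so the genotypes overlapped. The markers did not move together. In mean FPKM Tyr, Tyrp1, Dct and Pmel were higher in Nrl-/- retina, and Rpe65, Rgr, Ttr and Lrat were lower. The 1 with an unadjusted p under 0.05 was Tyrp1, which went from 1.12 ± 0.653 to 3.33 ± 2.33 (SD, n = 3), with an adjusted p of 0.052 (limma). No marker of either list was listed at 0 in any library. The part of either cell type in the Otx2 difference was not tested.

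Neurod1, a basic helix-loop-helix factor that maintains photoreceptors in mice, lies on the minus strand at chr2:79292678-79296908. NM_010894 was at 168, 167 and 171 in WT and at 184, 179 and 216 in Nrl-/- retina. Every Nrl-/- library was above every WT library, and Nrl-/- replicate 3 stood apart from the other 2. The log2 fold change was 0.19 (95% interval 0.02 to 0.36), and its adjusted p of 0.080 (limma) missed the threshold, with an unadjusted p of 0.034. Under median-of-ratios scaling the change was 0.08 (adjusted p = 0.46, limma), and under quantile normalization 0.05 (adjusted p = 0.72, limma). The 2 TopHat transcripts summed to 158 in WT and 183 in Nrl-/- retina. Their locus is given as chr2:79095582-79301264, which reaches beyond the Neurod1 gene on both sides.

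Rorb, the nuclear receptor that acts before NRL, had 2 transcripts, of which 1 was lower. The gene lies on the minus strand at chr19:19005095-19185686, and its annotated transcripts start mainly at 2 sites, 110 kb apart. NM_146095 was at 22.3, 21.8 and 27.6 in WT and at 4.50, 4.31 and 4.70 in Nrl-/- retina. It was 5.31-fold lower in mean FPKM, with a log2 fold change of -2.17 ± 0.090 (SE; adjusted p = 1.8e-07, limma). NM_001043354 was at 7.28, 6.01 and 7.06 in WT and at 8.06, 7.40 and 7.69 in Nrl-/- retina, and its log2 fold change was 0.17 (95% interval -0.01 to 0.34, adjusted p = 0.12, limma). The transcript that was the minor one in WT, at 22.2% ± 2.21 (SD, n = 3) of the summed Rorb FPKM, made up 63.1% ± 1.04 (SD, n = 3) in Nrl-/- retina.

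The difference between the 2 Rorb log2 fold changes was itself tested, in a limma fit over 2997 pairs of isoforms, each the lower transcript of a symbol less its highest. In that fit 1.47% of all pairs passed. The Rorb difference was 2.34 ± 0.097 (SE; adjusted p = 0.0034). It was 2.34 and 2.36 without Nrl-/- replicate 2 or 3, and the adjusted p was then 0.072 and 0.063. The pooled TopHat values held 4 Rorb transcripts, of which 3 were lower in Nrl-/- retina, from 26.8 to 6.96, from 6.94 to 1.73 and from 2.16 to nearly 0. The fourth was at 6.30 in WT and 7.94 in Nrl-/- retina. Which start belongs to which RefSeq accession was not analysed here.

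The other 4 members with 2 transcripts were compared in the same way. The minor Esrrb isoform held 22.7% to 25.4% of the summed Esrrb FPKM in WT and 20.8% to 26.7% in Nrl-/- libraries, so the shares overlapped. Its log2 fold changes differed by 0.80 (adjusted p = 0.034, limma), but this difference was 0.13 (adjusted p = 0.81) when 0.1 was added to the FPKM in place of 1. It also missed the threshold when any 1 library other than WT replicate 1 was left out, with adjusted p from 0.077 to 0.157. For Mef2c the shares were 34.5% ± 2.06 and 39.2% ± 5.51 (SD, n = 3), the difference of log2 fold changes was 0.55 and the adjusted p was 0.058. The minor Nrl isoform held 3.36% ± 0.154 in WT and was listed at 0 in Nrl-/- retina, and its difference of 3.83 (adjusted p = 2.8e-05, limma) was 1.49 (adjusted p = 0.0058) with 0.1 added. Its log2 fold change of -4.32 ends at 0 and is bounded by the 1 added, while that of the major isoform was -8.15. The Nrl difference therefore cannot show that the isoforms responded differently. The Crx shares were 49.1% and 48.3%, with a difference of -0.05 (adjusted p = 0.23, limma). The plot of isoform shares shows the Rorb change beside the other 4.

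**Figure D3:**
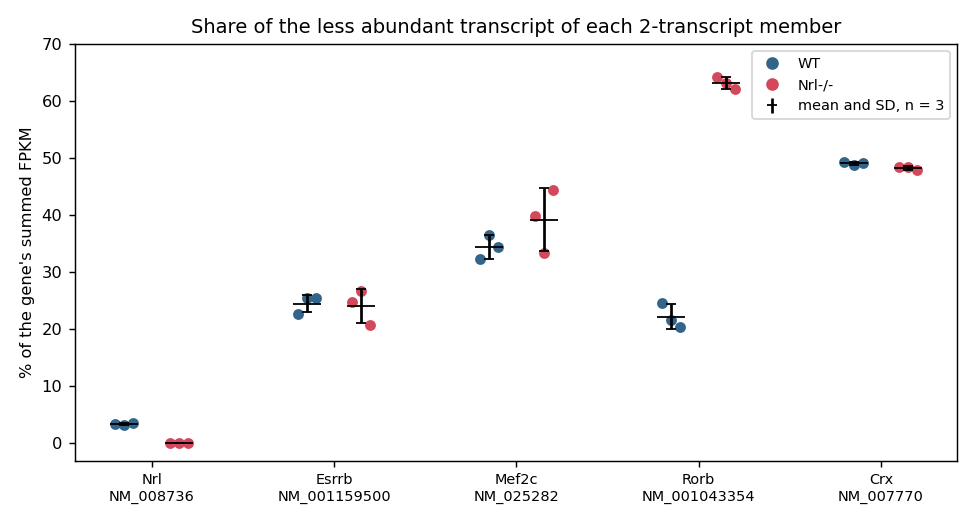
The y axis is the percentage of a gene's summed FPKM held by the transcript with the lower mean FPKM, each point is 1 library, and black bars give the mean and SD of 3 libraries. The Rorb share goes from 20.3% to 24.6% in WT to between 62.1% and 64.2% in Nrl-/- libraries, while the Esrrb shares overlap.

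The bases before the transcription start are shown for the 2 members with the largest falls, Nrl and Nr2e3, for Crx, whose transcripts did not pass the test, and for both starts of Rorb, because its 2 transcripts had different fold changes. RefSeq gives 19 starts for the 10 members in the assembly GRCm38.p6, and 250 bases before each were searched on both strands. The motifs searched, in capitals below, were TAATC (reverse GATTA), the core bound by CRX and OTX2, TGCTGA (reverse TCAGCA), a half-site of MAF factors such as NRL, AGGTCA (reverse TGACCT), a nuclear receptor half-site, and CAGATG (reverse CATCTG), an E-box. In the 5 windows shown 0 matches of different motifs overlap.
Nrl, GRCm38.p6 chr14:55524253-55524502, minus strand: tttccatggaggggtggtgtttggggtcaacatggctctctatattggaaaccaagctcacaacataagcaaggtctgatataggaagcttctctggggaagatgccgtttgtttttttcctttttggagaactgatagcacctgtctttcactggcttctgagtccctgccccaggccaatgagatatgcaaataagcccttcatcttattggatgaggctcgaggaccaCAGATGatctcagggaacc
Nr2e3, GRCm38.p6 chr9:59950080-59950329, minus strand: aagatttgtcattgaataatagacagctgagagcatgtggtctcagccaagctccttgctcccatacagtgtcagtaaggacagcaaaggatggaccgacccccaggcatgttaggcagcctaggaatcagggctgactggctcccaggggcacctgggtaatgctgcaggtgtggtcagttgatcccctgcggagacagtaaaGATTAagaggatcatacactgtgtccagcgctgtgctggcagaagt
Crx, GRCm38.p6 chr7:15879956-15880205, minus strand: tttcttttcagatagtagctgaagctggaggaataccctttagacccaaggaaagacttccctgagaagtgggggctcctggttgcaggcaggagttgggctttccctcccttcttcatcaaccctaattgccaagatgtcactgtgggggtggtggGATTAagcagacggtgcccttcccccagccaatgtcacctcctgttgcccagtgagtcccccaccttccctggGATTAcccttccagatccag
Rorb upstream start, GRCm38.p6 chr19:19111197-19111446, minus strand: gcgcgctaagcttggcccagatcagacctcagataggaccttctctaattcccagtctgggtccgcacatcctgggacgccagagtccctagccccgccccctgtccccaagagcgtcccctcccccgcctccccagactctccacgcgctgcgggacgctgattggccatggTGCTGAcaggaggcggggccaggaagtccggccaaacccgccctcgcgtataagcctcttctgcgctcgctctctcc
Rorb downstream start, GRCm38.p6 chr19:19001118-19001367, minus strand: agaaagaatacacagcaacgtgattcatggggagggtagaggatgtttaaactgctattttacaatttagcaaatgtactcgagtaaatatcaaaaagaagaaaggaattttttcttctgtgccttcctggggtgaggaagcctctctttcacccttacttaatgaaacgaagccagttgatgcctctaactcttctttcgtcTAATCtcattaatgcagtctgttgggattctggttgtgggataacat

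The Crx window holds TAATC 2 times, both as GATTA. The Nr2e3 window and the downstream Rorb window hold it 1 time each. The upstream Rorb window holds TGCTGA 1 time, and the Nrl window holds CAGATG 1 time. Among the 19 member windows TAATC was present in 7, TGCTGA in 6, CAGATG in 3 and AGGTCA in 2. Of all 32851 RefSeq windows of this length, 19.8% hold TAATC, 16.1% TGCTGA, 14.4% CAGATG and 14.0% AGGTCA. Both Esrrb windows hold 0 of the 4 motifs. A match of this length is a description of letters, and binding was not measured here.

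The next question was whether genes that work with the members moved too. These lists were compiled from general knowledge, and each gene was taken at its transcript with the highest mean FPKM. On that scale 10.2% of all 12145 symbols were called lower and 28.3% higher, and their median log2 fold change was 0.09. Of 12 partners known to bind NRL, CRX or NR2E3, 11 were in the table, of which 1 was higher, 2 were lower and 8 did not pass, with a median of 0.00. Samd7, which encodes a photoreceptor repressor protein, went from 34.0 ± 11.5 to 12.4 ± 2.52 (SD, n = 3), and the log2 fold change was -1.35 ± 0.21 (SE; adjusted p = 0.0011, limma). The acetyltransferase gene Ep300 fell by 0.32 and the RNA-binding factor gene Nono rose by 0.42 on the log2 scale. Under median-of-ratios, upper-quartile or quantile scaling, 4 of the partners were lower in place of 2, and without WT replicate 3, 2 were higher in place of 1.

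Of 17 family relatives of the members 13 were in the table, of which 4 were higher, 3 were lower and 6 did not pass, with a median of -0.06. The higher share of 30.8% is near the 28.3% over all symbols, and the lower share was 23.1% against 10.2%. Maf, a leucine zipper relative of Nrl, went from 2.19 ± 0.131 to 4.27 ± 0.502 (SD, n = 3), with a log2 fold change of 0.72 (adjusted p = 2.4e-04, limma). Both of its levels are low beside the 545 of Nrl in WT retina. Maff, also low, and Esrrg, a relative of Esrrb, rose by 0.40 and 0.33 on the log2 scale. The number of higher relatives was 2 under an ordinary linear model, under quantile normalization, and without Nrl-/- replicate 1 or 2, and the number of lower ones was 1 without Nrl-/- replicate 1 or 2 or WT replicate 2.

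Of 17 other transcription factors of photoreceptors or their precursors, 16 were in the table, of which 8 were higher, 1 was lower and 7 did not pass, with a median of 0.20, against the 28.3% higher over all symbols. Rxrg, a retinoid receptor of cones, went from 1.51 ± 0.253 to 13.4 ± 1.83 (SD, n = 3), with a log2 fold change of 2.52 ± 0.11 (SE; adjusted p = 2.5e-07, limma). Sall3, which acts in cone development in mice, rose by 1.97 on the log2 scale. Prdm1, a repressor that holds photoreceptor precursors from the bipolar fate, rose by 1.79, and the homeobox gene Six6 by 1.48. The number of higher genes was 5 under an ordinary linear model and under quantile normalization. The single lower gene was Bhlhe40, a clock-related repressor, at -0.28, and 0 were lower when any library other than WT replicate 2 was left out.

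Known targets of these factors, the genes of rod and cone phototransduction, moved as 2 groups. All 15 genes of rod phototransduction and the outer segment were lower, with a median of -3.02, and all 10 cone phototransduction genes were higher, with a median of 3.54. The summed FPKM of the rod genes was between 11744 and 13089 in WT libraries and between 2582 and 2691 in Nrl-/- libraries, and that of the cone genes rose from a range of 562 to 681 to one of 6627 to 6805. Among rod genes, the log2 fold change was -10.99 for the transducin gene Gnat1, -7.84 for the channel subunit gene Cnga1, -6.34 for the exchanger gene Slc24a1 and -4.48 for the phosphodiesterase subunit gene Pde6b. Sag, the arrestin gene, changed least of the 15, from 767 ± 43.8 to 552 ± 67.5 (SD, n = 3). The largest cone rises were those of the opsin gene Opn1sw (4.20), Cngb3 (4.19), Pde6c (3.91) and Gngt2 (3.67). These genes were widely known to differ between the genotypes when the lists were made. The plot of related gene lists sets the 10 members beside them.

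**Figure D4:**
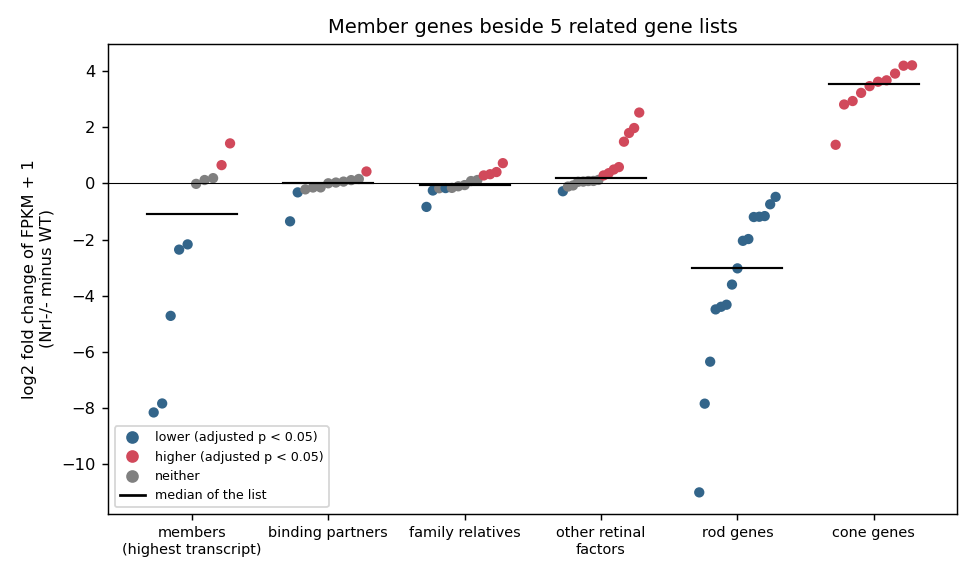
The y axis is the log2 fold change of FPKM + 1, Nrl-/- minus WT, each point is 1 gene at its transcript with the highest mean FPKM, colours mark an adjusted p under 0.05 and black lines are medians. The 15 rod genes all lie below 0 and the 10 cone genes all above it, whereas the members lie on both sides.

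Genes outside the network with the most similar profile were sought by the Euclidean distance between log2(FPKM + 1) values over the 6 libraries, each centred on its own mean. The genotype difference dominates this measure. Cnga1 was nearest to Nr2e3 at a distance of 0.15 and to Nrl at 0.46, and it was the only gene within 0.5 of either. Mean FPKM of Nr2e3 and Cnga1 was 235 and 233 in WT and 0.0378 and 0.0187 in Nrl-/- retina. With both near 0 in Nrl-/- retina, their distance mainly compares WT levels. Falls of this size were rare, with 4 of the 15142 transcripts falling further than Nr2e3, so few genes could lie this near. Esrrb was nearest to Pde6b (0.44), Cngb1 (0.48) and Gucy2f (0.49), which encode a rod phosphodiesterase subunit, a rod channel subunit and a guanylate cyclase of photoreceptors, and these 3 were all that lay within 0.5. Mef2c was nearest to St8sia1, Dhrs3 and Zan, and Rorb to Zfp36l2, Lrrc2 and Zfyve28, with 17 genes within 0.5 of each. Crxos1 was nearest to Glo1, the glyoxalase gene, at 0.16. Otx2 was nearest to Cdhr1, a photoreceptor cadherin gene, at 0.068, with Prdx2 at 0.069 and Zfp945 at 0.074 close behind. Within 0.5 lay 78 genes for Crxos1 and 2078 for Otx2, so Cdhr1 is not singled out by this distance. For Crx, Mef2d and Neurod1 between 7808 and 8957 genes lay within that distance, so their nearest genes (Tsen54, Bai2 and Xkr8) are not singled out by it.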

How the data were processed

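The study sequenced 6 retina libraries as 70-nucleotide single reads. The authors aligned the reads with BWA to mm9 and deposited log2(FPKM + 1) per RefSeq isoform, to 2 decimals, and kept a transcript if any of the 6 libraries reached an FPKM of 1. How reads shared by isoforms of 1 gene were split is not given in the sources used here. The authors' TopHat tables hold 1 pooled FPKM per genotype and isoform, used without a test. The deposited columns of fold changes and p-values are the authors' own comparisons and were not used. The paper gives reads and alignments per library, and depth was not computed from the tables, which hold no counts.

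Genotypes were compared with limma 3.58.1 in R 4.3.3, a linear model on the deposited values with a trend in the prior variance and Benjamini-Hochberg adjustment. Isoform pairs were fitted likewise. Tables and plots used Python 3.11.15, numpy 2.4.6, pandas 2.3.3 and matplotlib 3.10.9. The fits were tested on simulated data. The alternatives tried were adding 0.5 or 0.1 in place of 1, stricter FPKM filters (1 in 3 libraries, or 5 in 1), an unmoderated linear model, limma with no trend, limma with a robust prior, median-of-ratios, upper-quartile and quantile scaling, a replicate block, leaving out each library, and FPKM summed per symbol. The members and lists were chosen with earlier results of these data known. All members were named, and from each list up to 4 called genes with the largest log2 fold changes. A result that this rule would name is not reported here. Outside that rule, after their values were seen, Sag, Bhlhe40, Otx2os1, Xist and the pigment epithelium markers were named. Positions are those of GENCODE M1 on NCBIM37, and promoter windows those of RefSeq on GRCm38.p6, found for all 10 members (Crxos1 as Crxos).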

Additional observations from a re-analysis of the deposited data

How the results depend on the processing

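Over the alternatives, 20 single results (15 member transcripts and 5 isoform pairs) gave 348 values, of which 330 kept their direction and their side of the threshold. The 10 called member transcripts stayed called in the same direction under every alternative that tested them. Mef2c NM_025282 was left out by the filter at an FPKM of 5. When FPKM is summed per symbol, the value of the gene sum was entered under the major isoform, and the minor isoforms have no value of their own. For Rorb that sum went from 30.7 to 12.2 in mean FPKM, with a log2 fold change of -1.26. The 2 member transcripts called higher became 3 without WT replicate 1, and the 8 called lower became 10 under quantile normalization, which added both Crx transcripts. Summed per symbol, 5 of 10 members were lower. The change of Crx NM_001113330 ran from -0.0567 to 0.025 when 1 library was left out, reversing to 0.025 without Nrl-/- replicate 3 and to 0.00333 without WT replicate 2 or 3. Member isoform pairs with an adjusted p under 0.05 (limma) numbered 3, and from 1 to 3 when 1 library was left out. These counts include Nrl, whose difference is bounded by a level of 0 in Nrl-/- retina. Over all mRNA transcripts the 4047 called higher became 2459 with median-of-ratios scaling, 2466 with upper-quartile scaling and 2451 with quantile normalization, and the higher share of calls went from 72.7% to between 51.9% and 52.3%, since the median transcript lies 0.08 above 0 on the deposited scale. Leaving out 1 library gave 2784 to 4180 higher. Libraries of the same replicate number correlated at 0.0286, 0.0237 and 0.124 in their deviations, so the numbers were not taken as pairs. With the replicate as a block, 2 member transcripts were higher, 8 lower and 1 isoform pair, that of Nrl, passed, where the adjusted p of Rorb was 0.071. With 3 libraries a group, changes well under the 95% intervals given are not resolved.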
